A study of Homo sapiens with 6 samples.

Results

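Kinesins are motor proteins that walk along microtubules or take them apart. The genes described here are those whose single platform symbol starts with KIF or KIFC followed by a digit. There were 45 of them among the 19775 genes measured, read by 91 probe sets. Each gene was read from its brightest probe set, judged by the mean log2 value of all 6 arrays. By known role, 14 act mainly in mitosis, 15 carry cargo, and 12 have other or little studied roles. The symbol rule also took in 4 antisense transcripts at kinesin genes (KIF1C-AS1, KIF9-AS1, KIF23-AS1 and KIF25-AS1), which encode no motor. KIF4B had no probe set with its symbol alone and was not analysed here.

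The cells were K562, an established human line from chronic myeloid leukaemia that carries the BCR-ABL1 fusion. Of 6 arrays, 3 came from cells given calactin, a plant cardenolide that inhibits the sodium pump, with 0.15 mM as the labelled dose and 12 h as the time, and 3 came from untreated cells at 12 h. The labels call the samples of a group biological replicates and name no vehicle for the untreated cells. A single line at a single dose and time was studied. By its title, the study was concerned with damage to DNA and changes of histones in leukaemia cells.

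Kinesins typically have a motor domain that hydrolyses ATP, and a tail that decides what the motor holds. Mitotic kinesins slide spindle microtubules apart, trim their ends, move chromosomes to the spindle equator and build the midzone where the cell divides. Their genes are mostly switched on in the G2 phase of the cell cycle, when the MuvB complex with MYBL2 and FOXM1 takes over from the repressive DREAM complex. Cargo kinesins are active through the cell cycle and carry mitochondria, lysosomes, endosomes and synaptic vesicle precursors along microtubules, most of them toward the cell edge, or material along the cilium. KIFC motors walk the other way, toward the minus ends.

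Signals are intensities in the units of the deposited table. The median of an array lay between 31.2 and 32.1 in the calactin group and between 33.1 and 34.4 in the untreated group, so every calactin array lay lower. Poly-A control RNAs, which are added to the RNA before labelling, had a mean of 9.83 to 10.9 on the log2(intensity + 16) scale in replicates 1 and 2 and of 6.72 and 7.06 in the calactin and untreated replicate 3. Of 8 K562 markers 7 were measured, all above the median signal of all genes, which was 6.45 on that scale. Of these GATA1 and TFRC were called lower (-0.86 and -0.55) and TAL1 higher (0.92). Markers of other cell types were measured for 16 genes, of which 7 lay above it. The summed signal of the 4 lymphoid markers lay between 1735 and 1925 after calactin and between 2237 and 2643 without it, that of the 6 epithelial and stromal ones 5163 to 5747 and 6331 to 6736, and that of the 6 neuronal ones 5186 to 5862 and 6027 to 6496. All 3 sums were lower in every calactin array, but a few bright genes carried them, such as CD3D (mean 1703 with calactin) and TUBB3 (5391). CD3D and COL1A2 were called lower. CD3E, MS4A1, COL1A1, DCN, SNAP25, NEFL, RBFOX3 and STMN2 had positive values of 0.03 to 0.42 and were not called. CD2, EPCAM, KRT19, COL3A1, TUBB3 and SYT1 had negative values of -0.67 to -0.02 and were not called either. Of the neuronal markers, TUBB3 and SNAP25 lay above the median signal, and SYT1, NEFL, RBFOX3 and STMN2 below it. The part of these differences in the results was not tested. A share of cells in a phase of the cycle and a level per cell cannot be told apart in RNA from whole cultures.

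Calactin left most kinesin genes uncalled. Of the 45, limma called 4 higher (KIF18A, KIF4A, KIF18B and KIF5B) and 8 lower (KIF3A, KIFC3, KIF1B, KIF3C, KIF16B, KIF5A, KIF21B and KIF2A) at an adjusted p under 0.05, and 33 were not called. Over all genes tested, 21.4% were called, 4.93% higher and 16.5% lower, against 8.89% higher and 17.8% lower here. The share that fell lay near the background. By role it split: mitotic kinesins made up 3 of the 4 rises and cargo kinesins 6 of the 8 falls. All 12 called genes had their 3 calactin arrays on 1 side of the 3 untreated arrays. Such groups without overlap occurred for 10.3% of all genes with calactin higher and for 24.4% with calactin lower. Of the kinesin genes, 30 lay above the median signal, and all 12 called genes were among them. KIF3A and KIF3C were so only through their untreated arrays, since their calactin arrays lay below it. Of all genes above it, 9.1% were called higher and 29.3% lower. Without calactin replicate 1 or 2, 2 kinesin genes were called higher in place of 4.

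**Figure D1:**
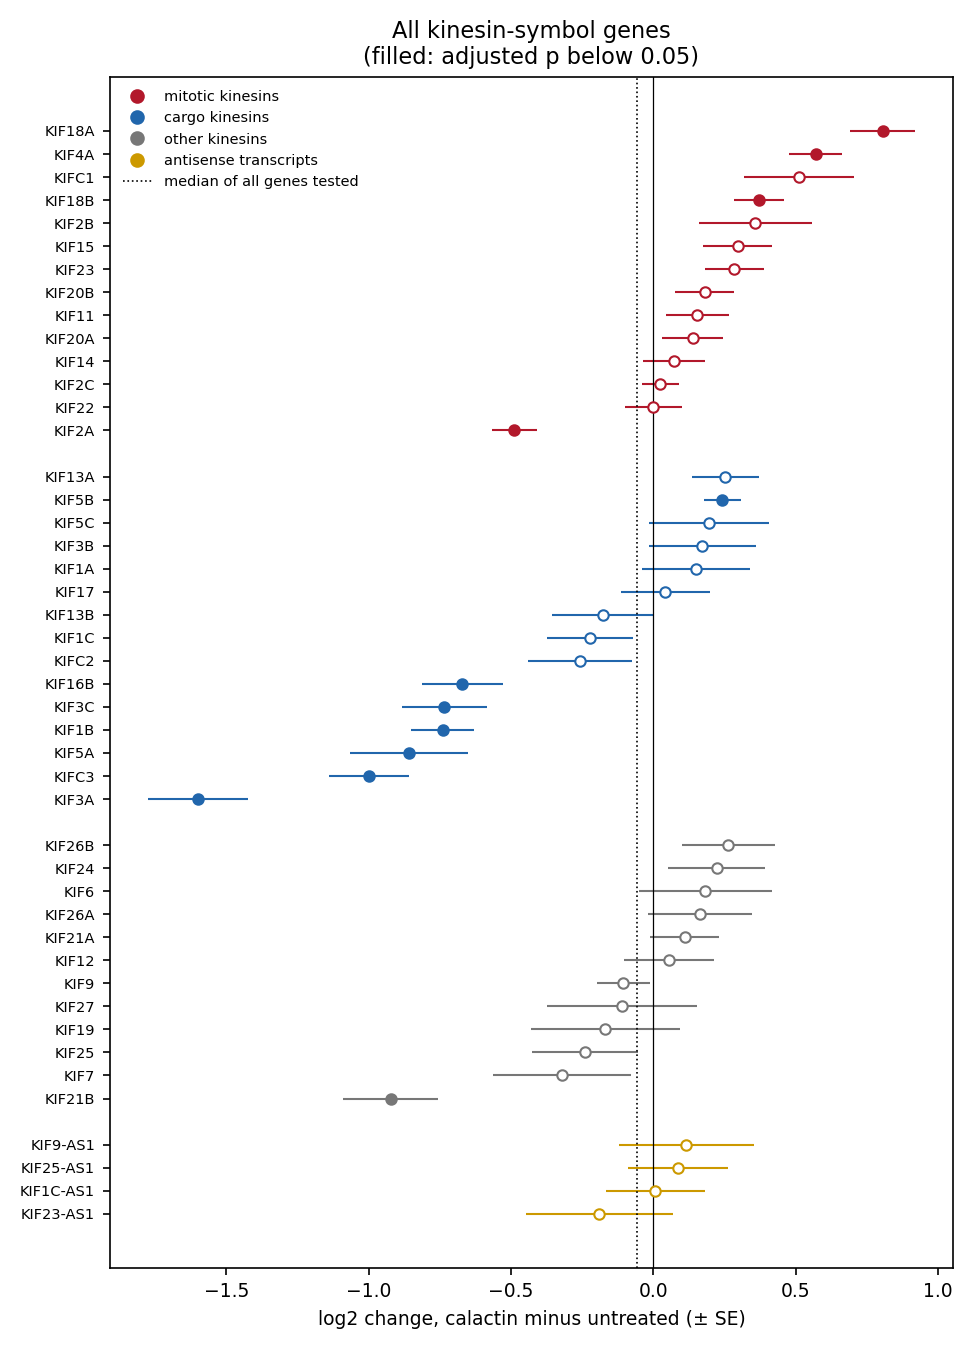
Log2 change with calactin (x axis, calactin minus untreated on the log2(intensity + 16) scale, bars are the standard error from limma) of all 45 genes with a kinesin symbol, coloured by role and sorted within it. Of the 14 mitotic kinesins 12 lie to the right of 0 and KIF2A lies apart at -0.49, while the 6 called falls among cargo kinesins run from -0.67 to -1.60. Of all 19775 genes tested, 8294 had a positive value.

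Among mitotic kinesins, 3 of 14 rose, KIF2A fell and 10 were not called. The share that rose was 21.4%, against 4.93% of all genes tested and 9.1% of those above the median signal. The median change was 0.23 on the log2 scale, against -0.06 for all genes tested. Of the 14, 12 had a positive value, as had 8294 of all 19775 genes. The 13 mitotic kinesins above the median signal, which leave out KIF2B, had a median of 0.18, and 11 were positive. All 9887 genes above it had a median of -0.13, and 3567 were positive. KIF18A, which caps the ends of spindle microtubules and damps chromosome swings at metaphase, read 891, 937 and 1021 intensity units in calactin replicates 1, 2 and 3 and 462, 587 and 567 in untreated replicates 1, 2 and 3. The lowest calactin array was well above the highest untreated one. It rose 1.75-fold, by 0.81 ± 0.11 (log2, SE, n = 3 arrays each, limma adjusted p = 0.00120). KIF4A, which binds chromosome arms and sets the length of the spindle midzone, read 1449.8, 1636 and 1483 intensity units in calactin replicates 1, 2 and 3 and 921, 1089 and 1055 in untreated replicates 1, 2 and 3. The groups did not overlap, and KIF4A rose by 0.57 ± 0.09 (adjusted p = 0.00254). KIF18B, which works with the depolymerase KIF2C on the microtubules that reach the cell cortex, read 1295, 1244 and 1102 intensity units in calactin replicates 1, 2 and 3 and 921, 952 and 926 in untreated replicates 1, 2 and 3. It rose by 0.37 ± 0.09 (adjusted p = 0.0153), a smaller step between groups that again did not overlap.

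KIF2A went the other way. This depolymerase works at spindle poles and also trims microtubules in cells that do not divide. It read 1466, 1307 and 1344 intensity units in calactin replicates 1, 2 and 3 and 1944, 1824 and 2026 in untreated replicates 1, 2 and 3, and it fell by 0.49 ± 0.08 (adjusted p = 0.00254). Its nearest relative in the list, KIF2C, which corrects faulty attachments at centromeres, read 3803, 3884 and 3666 intensity units in calactin replicates 1, 2 and 3 and 3534, 3735 and 3904 in untreated replicates 1, 2 and 3. Those groups overlapped, with a change of 0.02 ± 0.06 (adjusted p = 0.868). Within each array, the log2 difference of KIF18A from KIF2A was -0.71, -0.47 and -0.39 with calactin and -2.03, -1.61 and -1.81 in untreated cells. That difference does not depend on the overall scale of an array, and it shifted by 1.29. The pair was picked with its values known. Both genes had already moved in opposite directions without overlap, so the groups had to be apart in their difference as well.

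With the replicate number as a block, KIF23, KIFC1 and KIF15 were called higher as well, which made 7 higher and 8 lower kinesin genes where 7.09% and 20.2% of all genes were called. KIF23 is the motor of centralspindlin, which organises the cleavage site, and it read 515, 534 and 536 intensity units in calactin replicates 1, 2 and 3 and 385, 467 and 446 in untreated replicates 1, 2 and 3. Every calactin array lay above every untreated one, with a change of 0.28 ± 0.10 (adjusted p = 0.0950). It was called with the block (adjusted p = 0.0373 with the block, within 1.04e-06 to 0.865 over its alternatives), and its dimmer probe set, of unshared sequence, was at 0.06. KIFC1, the minus-end motor that clusters centrosomes, read 854, 882 and 1221 intensity units in calactin replicates 1, 2 and 3 and 565, 608 and 905 in untreated replicates 1, 2 and 3. In both groups replicate 3 was the highest, so the groups overlapped while each calactin array lay above the untreated array of its number. The change was 0.51 ± 0.19 (adjusted p = 0.107), and called with the block (adjusted p = 0.00131 with the block, within 5.13e-11 to 0.327 over its alternatives). KIF15, which backs up KIF11 in keeping the spindle bipolar, had 526, 571 and 616 with calactin and 397, 481 and 513 in untreated replicates 1, 2 and 3, without overlap. The change was 0.30 ± 0.12 (adjusted p = 0.134), and called with the block (adjusted p = 0.0249 with the block, within 5.78e-07 to 0.353 over its alternatives).

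The other mitotic motors were not called. KIF11, which pushes the spindle poles apart, changed by 0.15 ± 0.11 (adjusted p = 0.416). KIF20A, which brings the chromosomal passenger complex to the midzone, read 2039.8, 1580.0 and 1927 intensity units in calactin replicates 1, 2 and 3 and 1548, 1691 and 1778 in untreated replicates 1, 2 and 3. Its groups overlapped, at 0.14 ± 0.11 (adjusted p = 0.464). KIF14, a motor of the late midzone, read 1993, 1583 and 1866 intensity units in calactin replicates 1, 2 and 3 and 1646, 1596 and 1928 in untreated replicates 1, 2 and 3. Its values overlapped as well, at 0.07 ± 0.11 (adjusted p = 0.744). KIF20B was at 0.18 ± 0.10 (adjusted p = 0.294) and KIF22, which pushes on chromosome arms, at -0.0010 ± 0.10 (adjusted p = 0.998). KIF2B, a relative of KIF2C, lay near the floor at 1.14 to 13.7 units on all 6 arrays and was the only mitotic kinesin below the median signal. KIF18B was no longer called once calactin replicate 1, calactin replicate 2 or untreated replicate 3 was left out (highest adjusted p = 0.0646). With replicates 1 and 2 alone KIF4A, KIF2A and KIF18B were not called (0.0522, 0.0676 and 0.0615, within 5.80e-12 to 0.0522, 0.000934 to 0.799 and 2.06e-08 to 0.184 over their alternatives).

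**Figure D2:**
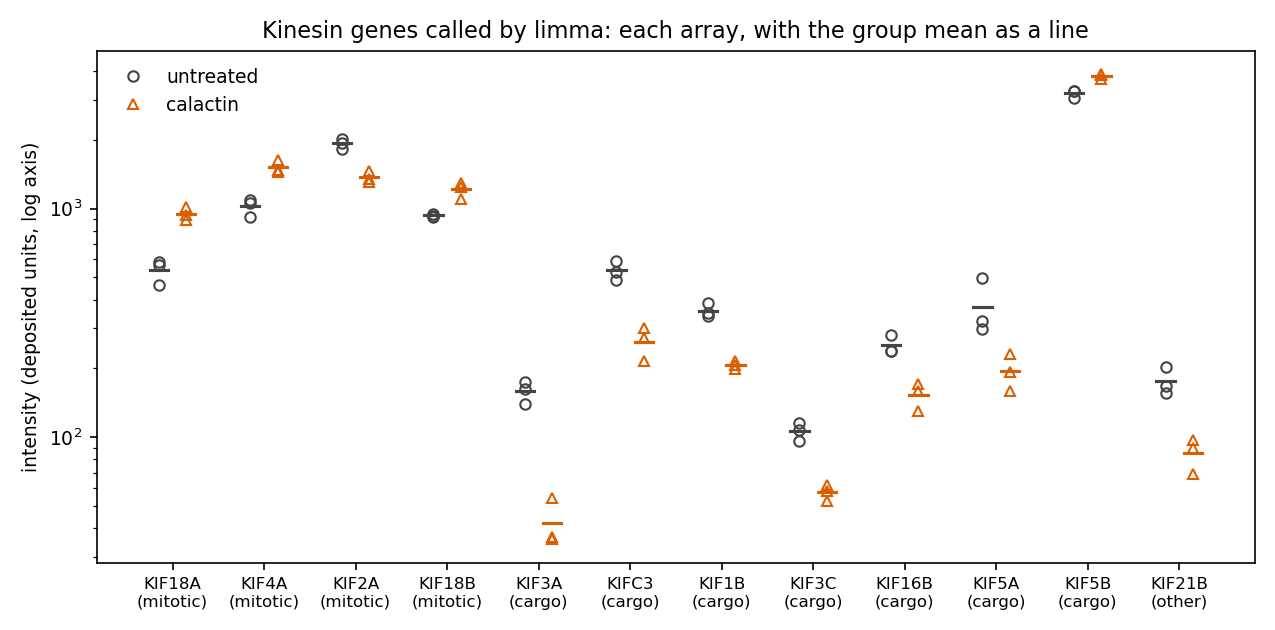
Intensity on each array (y axis, log scale, deposited units) of the 12 kinesin genes called by limma, with circles for untreated and triangles for calactin arrays and a line at each group mean. The groups of every gene shown are apart: KIF18A, KIF4A, KIF18B and KIF5B lie higher with calactin, and KIF3A shows the widest gap, at 35.6 to 54.0 against 140.2 to 173.5.

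Of 15 cargo kinesins, 6 fell, KIF5B rose and 8 were not called, with a median change of -0.22. The share that fell was 40.0%, against 16.5% of all genes tested and 29.3% of those above the median signal. KIF3A had the widest change of any kinesin gene read from its brightest probe set, while the dimmer set of KIF3C was at -1.75. It is a motor subunit of the heterotrimeric kinesin that moves cargo along cilia and also carries cadherin and other membrane cargo. Its signal was 54.0, 36.6 and 35.6 intensity units in calactin replicates 1, 2 and 3 and 163, 140.2 and 174 in untreated replicates 1, 2 and 3, a 3.03-fold fall of 1.60 ± 0.18 (adjusted p = 0.000371). The calactin arrays were below the median signal and every untreated array was above it. KIF3B, its partner subunit, read 564, 387 and 333 intensity units in calactin replicates 1, 2 and 3 and 409, 323 and 379.9 in untreated replicates 1, 2 and 3. Those values overlapped, and the change was 0.17 ± 0.19 (adjusted p = 0.631). KIF3C, which can take the place of KIF3B beside KIF3A, read 58.1, 61.5 and 52.7 intensity units in calactin replicates 1, 2 and 3 and 107, 116 and 96.2 in untreated replicates 1, 2 and 3, and it fell by 0.74 ± 0.15 (adjusted p = 0.00745). KIFAP3, the subunit that ties the motor pair to its cargo, fell by 0.32 ± 0.10 (adjusted p = 0.0488), from 515 ± 23.5 to 409 ± 25.6 intensity units (mean ± SD). That call was lost without any single array (highest adjusted p = 0.150) and under each of the 4 other scalings, with 0.21 in place of -0.32 under poly-A spike scaling.

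Within arrays, the log2 difference of KIF3A from KIF3B was -3.05, -2.94 and -2.75 in calactin replicates 1, 2 and 3 and -1.25, -1.12 and -1.06 in the untreated ones. It changed by -1.77 (mean -2.91 with calactin and -1.14 in untreated cells). For KIF3C against KIF3B it changed by -0.91 (means -2.56 and -1.66), again without overlap. For KIF4A against KIF21B, which had themselves moved in opposite directions without overlap, it changed by 1.49 (means 3.94 and 2.44). Of 6 such pairs examined after the values were known, each gave an exact two-sided permutation p of 0.1 (0.1 after Benjamini-Hochberg adjustment over the 6), the smallest that 3 arrays against 3 allow, so none could pass 0.05.

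KIFC3, a minus-end motor at cell junctions and in Golgi positioning, read 270.1, 216 and 299.7 intensity units in calactin replicates 1, 2 and 3 and 530.3, 487 and 591 in untreated replicates 1, 2 and 3. The highest calactin array was far below the lowest untreated one, and KIFC3 fell 2.00-fold, by 0.998 ± 0.14 (adjusted p = 0.00119). KIF1B, which carries mitochondria and synaptic vesicle precursors, read 199, 208 and 215 intensity units in calactin replicates 1, 2 and 3 and 348, 341 and 385 in untreated replicates 1, 2 and 3. It fell by 0.74 ± 0.11 (adjusted p = 0.00156), with little spread inside either group. KIF16B, which moves early endosomes, read 158, 129.6 and 171 intensity units in calactin replicates 1, 2 and 3 and 239, 238 and 280.2 in untreated replicates 1, 2 and 3. It fell by 0.67 ± 0.14 (adjusted p = 0.00958), a call lost without untreated replicate 3 (adjusted p = 0.0506, the highest over single arrays left out) and under quantile normalization (0.0588, within 0.00196 to 0.491).

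The conventional kinesin heavy chains split. KIF5B, the form found in most tissues, read 3827, 3673 and 3881 intensity units in calactin replicates 1, 2 and 3 and 3053, 3283 and 3281 in untreated replicates 1, 2 and 3. It rose by 0.24 ± 0.06 (adjusted p = 0.0252), the smallest called change of any kinesin gene, and it was not called once any calactin array or untreated replicate 1 was left out (highest adjusted p = 0.0950). KIF5A, the form best known from neurons, read 159.8, 232 and 193 intensity units in calactin replicates 1, 2 and 3 and 297, 495 and 324 in untreated replicates 1, 2 and 3. It fell by 0.86 ± 0.21 (adjusted p = 0.0169), with untreated replicate 2 standing highest. This call was lost without calactin replicate 1 or 3 (highest adjusted p = 0.0691). The neuronal marker sum, also lower with calactin, was mostly TUBB3. TUBB3 and SYT1 had negative values (-0.17 and -0.67), and SNAP25, NEFL, RBFOX3 and STMN2 positive ones (0.03 to 0.38). No neuronal marker was called at an adjusted p under 0.05, and their part in the KIF5A value was not tested. KIF5C stayed at 1.03 to 13.0 units on the probe set that stood for it, while another probe set reached 26 units in untreated replicate 2. The log2 difference of KIF5A from KIF5B changed by -1.10 within arrays (means -4.19 with calactin and -3.09 in untreated cells). KIF5A and KIF5B had themselves moved in opposite directions without overlap, so their difference had to separate the groups and adds no support. Replicates 1 and 2 alone left KIF3C, KIF16B, KIF5A and KIF5B uncalled as well, and KIF3A, KIFC3 and KIF1B called.

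Of the cargo kinesins that were not called, KIF13A, which moves recycling endosomes and melanosomes, read 784, 918 and 937 intensity units in calactin replicates 1, 2 and 3 and 701, 666 and 845 in untreated replicates 1, 2 and 3. Its groups overlapped, at 0.25 ± 0.12 (adjusted p = 0.188). KIF1C, a motor between the Golgi and the endoplasmic reticulum, was at -0.22 ± 0.15 (adjusted p = 0.382), and KIFC2 at -0.26 ± 0.18 (adjusted p = 0.406). KIF13B was at -0.18 ± 0.18 (adjusted p = 0.598) and KIF17 at 0.04 ± 0.16 (adjusted p = 0.909). KIF1A, a motor of neurons, stayed at 7.73 to 20.7 units, and with KIF5C it made up the cargo kinesins below the median signal.

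Of the 12 other kinesins, 1 was called. KIF21B, which slows microtubule growth in lymphocytes and neurons, read 89.4, 69.0 and 96.9 intensity units in calactin replicates 1, 2 and 3 and 167, 156 and 203 in untreated replicates 1, 2 and 3. The groups did not overlap. KIF21B fell by 0.92 ± 0.17 (adjusted p = 0.00432), a call lost with replicates 1 and 2 alone (change -0.91, adjusted p = 0.0588, within 0.000500 to 0.0854). Its close relative KIF21A, which acts at the cell cortex, read 965, 871 and 964 intensity units in calactin replicates 1, 2 and 3 and 849, 745 and 1017 in untreated replicates 1, 2 and 3. That was a change of 0.11 ± 0.12 (adjusted p = 0.632) with overlapping groups. KIF9, a motor of cilia and flagella, read 957, 1009.6 and 997 intensity units in calactin replicates 1, 2 and 3 and 1008, 1196 and 999 in untreated replicates 1, 2 and 3, a change of -0.11 ± 0.09 (adjusted p = 0.532). Its bright probe sets are all of shared sequence. The only unshared one had a mean of 24.5 intensity units, below the median signal, at 0.16 and not called. KIF26B was at 0.26 ± 0.16 (adjusted p = 0.341). The remaining 8 (KIF6, KIF7, KIF12, KIF19, KIF24, KIF25, KIF26A and KIF27) lay below the median signal, with changes of -0.32 to 0.22 and none called. The 4 antisense transcripts lay below it too, at -0.19 to 0.12.

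Several kinesin genes had more than 1 probe set, which gives a further reading of the gene on the same arrays. Of 91 probe sets, 4 were called higher and 14 lower with adjustment over all 54613 probe sets that are not array controls, where 3.68% were called higher and 10.3% lower. Of the 27 genes with several probe sets, 0 had calls in opposite directions. Both probe sets of KIF3A were called lower, at -1.60 and -1.04, as were both of KIF3C, at -0.74 and -1.75, and both of KIF2A, at -0.49 and -0.54. For KIF1B, 3 of 4 were called lower, at -0.74, -1.14 and -1.49, and the fourth, below the median signal, was at -0.17. For KIF16B the brighter was called, at -0.67, and the dimmer was not, at -0.66 (adjusted p = 0.0742). The 3 probe sets of KIF5B lay at 0.24, 0.20 and 0.31, of which the brightest alone was called.

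Other genes read less evenly. KIF13A had 6 probe sets: the brightest was at 0.25 and not called, while a dimmer set fell by 1.27 (adjusted p = 0.00563), from a mean of 89.5 to 28.0 intensity units. Probe sets can read different transcript forms of a gene, and which form each of these reads is not given in the sources used here. For KIF5A the brightest was called, at -0.86, and the dimmer ones were at -0.36 and -0.41, not called. For KIFC3 the dimmer set, with a mean of 13.0 intensity units, was at 0.03. KIF18A, KIF4A, KIF18B and KIF21B each had 1 probe set, so their calls have no such second reading.

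**Figure D3:**
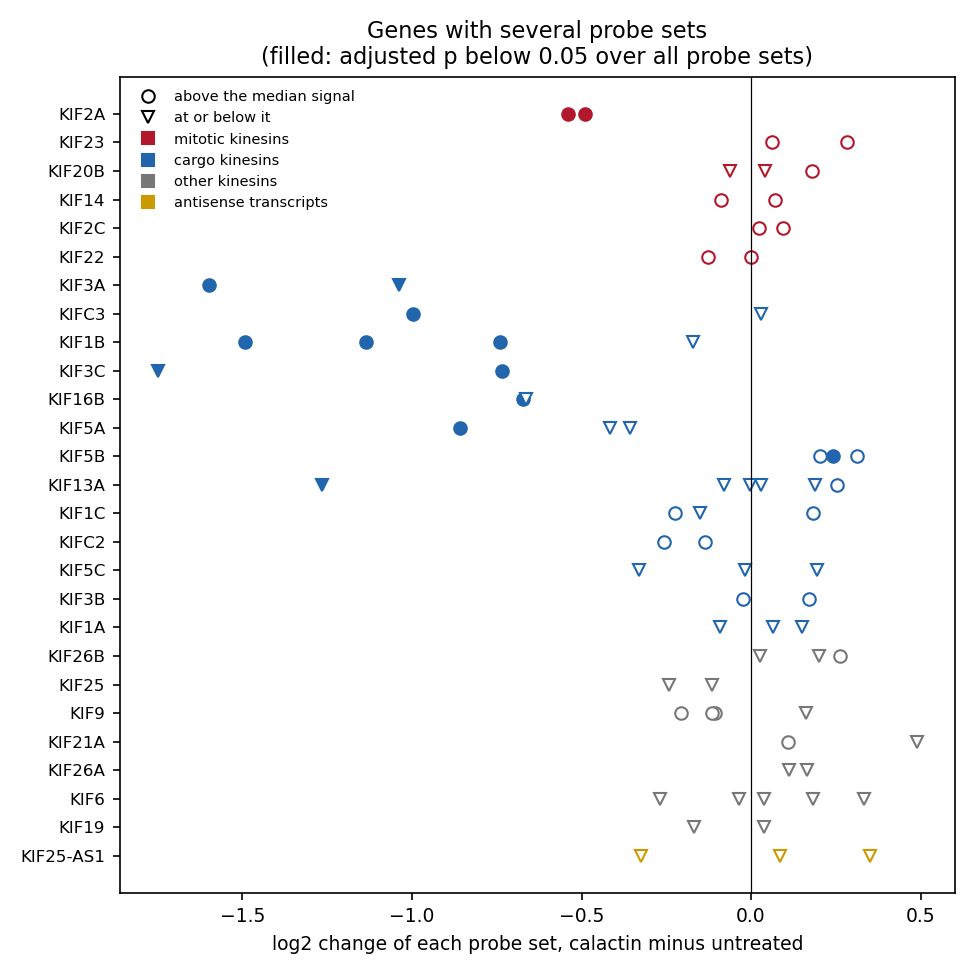
Log2 change with calactin of each probe set (x axis) for the 27 kinesin genes with more than 1, coloured by role, with circles above and triangles at or below the median signal and filled symbols where the adjusted p over all probe sets was under 0.05. The filled symbols of KIF3A, KIF3C, KIF1B and KIF2A all lie left of 0, and a single dim KIF13A probe set lies at -1.27, apart from the other 5.

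Set side by side, mitotic and cargo kinesins differed in their medians by 0.46 on the log2 scale (0.23 against -0.22). In replicates 1, 2 and 3, taken as pairs of a calactin and an untreated array, the median of mitotic kinesins was 0.33, 0.18 and 0.20 and that of cargo kinesins -0.19, -0.22 and -0.27. The difference was 0.52, 0.40 and 0.47. In every pair at least 10 of 14 mitotic kinesins were positive and at least 9 of 15 cargo kinesins negative. The median of all genes was -0.06, -0.06 and -0.11 in these pairs, so most genes were negative too. Between the group means, 8294 of all 19775 genes and 3567 of the 9887 above the median signal were positive. A count of 9 of 15 negative therefore lies near the background. No test was made over the lists, whose members were chosen with results of these data known. Leaving out KIF2A, which also acts outside mitosis, gave a mitotic median of 0.28. KIF2A had the lowest value of the 14, so leaving it out could not lower the median.

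The mitotic median was positive under all 5 scalings, while the cargo median was negative under 4 and positive under poly-A spike scaling. Median centring gave 0.29 for mitotic and -0.17 for cargo kinesins, quantile normalization 0.35 and -0.019 (8 kinesin genes higher and 7 lower, where 8.4% and 12.1% of all genes were called), and hybridisation spike scaling 0.33 and -0.13. Poly-A spike scaling with the replicate block moved the median of all genes from -0.06 to 0.47 and gave 0.77 and 0.31, so the cargo median changed sign while it remained below that of all genes. With that scaling 28 kinesin genes were called higher, where 47.5% of all genes were, and 2 lower, KIF3A and KIFC3, where 5.15% were. Of the 18 kinesin genes with a negative value on the deposited scale, 11 were positive under it. KIF2A was then at 0.045 and not called (adjusted p = 0.799). Hybridisation spike scaling gave 3 higher genes (KIF18A, KIF4A and KIFC1) and 4 lower ones, with 3.05% and 7.4% of all genes called. Under it the calls of KIF2A, KIF18B, KIF1B, KIF3C, KIF16B and KIF5B were lost. The calls of KIF18A, KIF4A, KIF3A and KIFC3 held under all 4 other scalings. A shift of a whole array cancels in the difference of the medians, which was 0.37 under quantile normalization and 0.46 under the other 3.

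**Figure D4:**
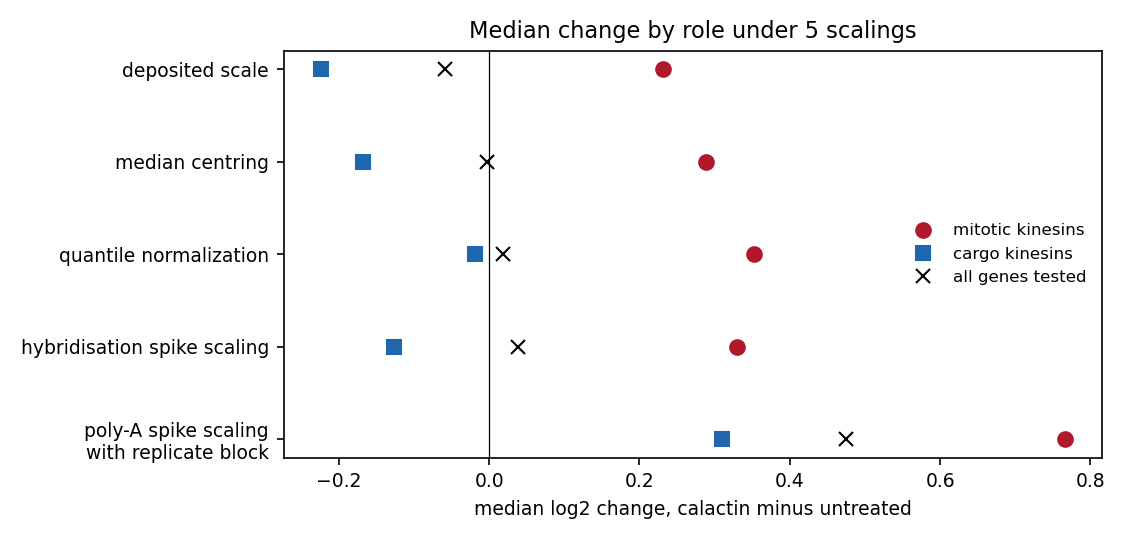
Median log2 change with calactin (x axis) of the 14 mitotic kinesins (circles), the 15 cargo kinesins (squares) and all 19775 genes tested (crosses) on the deposited scale and under the other scalings (rows). Mitotic kinesins lie right of all genes and cargo kinesins left of them in every row, and all medians move to the right under poly-A spike scaling.

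Promoters were compared because the mitotic members are known to share control elements. The CHR, read here as TTTGAA or TTTAAA on either strand, is bound by the MuvB core of the DREAM and FOXM1 complexes. CCAAT, read on either strand, is bound by NF-Y. RefSeq windows of GRCh38.p14, from 250 bases before to 50 after a transcription start, were found for 33 of the 41 kinesins with a motor, among them all 14 mitotic ones, 11 cargo and 8 other kinesins. A gene with several windows counted where any held the match. TTTAAA reads the same on both strands, and matches that overlap were counted separately. The windows below run from 150 bases before to 20 after the start, 5′ to 3′ in the direction of the gene, with capitals for the matches. They show the 3 mitotic kinesins that rose, KIF3A as the largest of the falls, which held no match, and KIF5B as the cargo kinesin that rose.
KIF18A, chr11:28108137-28108306, minus strand: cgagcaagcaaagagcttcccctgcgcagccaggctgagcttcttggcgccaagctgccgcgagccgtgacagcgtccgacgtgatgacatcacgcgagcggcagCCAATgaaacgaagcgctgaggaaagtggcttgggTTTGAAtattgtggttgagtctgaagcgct
KIF4A, chrX:70289954-70290123, plus strand: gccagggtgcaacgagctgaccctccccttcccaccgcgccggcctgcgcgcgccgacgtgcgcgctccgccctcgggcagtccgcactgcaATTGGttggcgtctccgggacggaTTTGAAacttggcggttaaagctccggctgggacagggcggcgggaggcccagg
KIF18B, chr17:44947754-44947923, minus strand: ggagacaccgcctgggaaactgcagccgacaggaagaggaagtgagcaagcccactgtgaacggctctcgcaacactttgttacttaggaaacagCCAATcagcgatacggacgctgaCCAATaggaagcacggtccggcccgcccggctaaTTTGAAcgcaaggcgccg
KIF3A, chr5:132737527-132737696, minus strand: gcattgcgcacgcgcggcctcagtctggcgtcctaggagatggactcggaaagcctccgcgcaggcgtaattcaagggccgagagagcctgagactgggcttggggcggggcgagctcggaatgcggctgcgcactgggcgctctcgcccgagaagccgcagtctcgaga
KIF5B, chr10:32056406-32056575, minus strand: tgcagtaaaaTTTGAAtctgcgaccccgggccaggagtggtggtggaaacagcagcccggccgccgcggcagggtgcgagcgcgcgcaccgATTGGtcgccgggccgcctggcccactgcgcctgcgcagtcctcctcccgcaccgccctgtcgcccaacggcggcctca

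In the 3 mitotic promoters a CCAAT match came before a CHR match close to the start. In KIF18A they stood 35 bases apart from first letter to first letter, in KIF4A 24 and in the nearer KIF18B pair 34. In KIF5B the order was turned and the distance 81. Of the 14 mitotic kinesins, 11 (78.6%) held a CHR match, 10 (71.4%) CCAAT and 9 (64.3%) both. Over all 27305 genes with a window the shares were 27.9%, 39.7% and 12.7%. Of the 11 cargo kinesins, 2 held a CHR match, 4 CCAAT and 1, KIF5B, both. Of the 8 other kinesins 0 held a CHR match in this window and 3 held CCAAT. The pair stood within 50 bases in 8 of the 9 mitotic kinesins, and in 46.4% of the 3065 genes that hold both in a window.

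**Figure D5:**
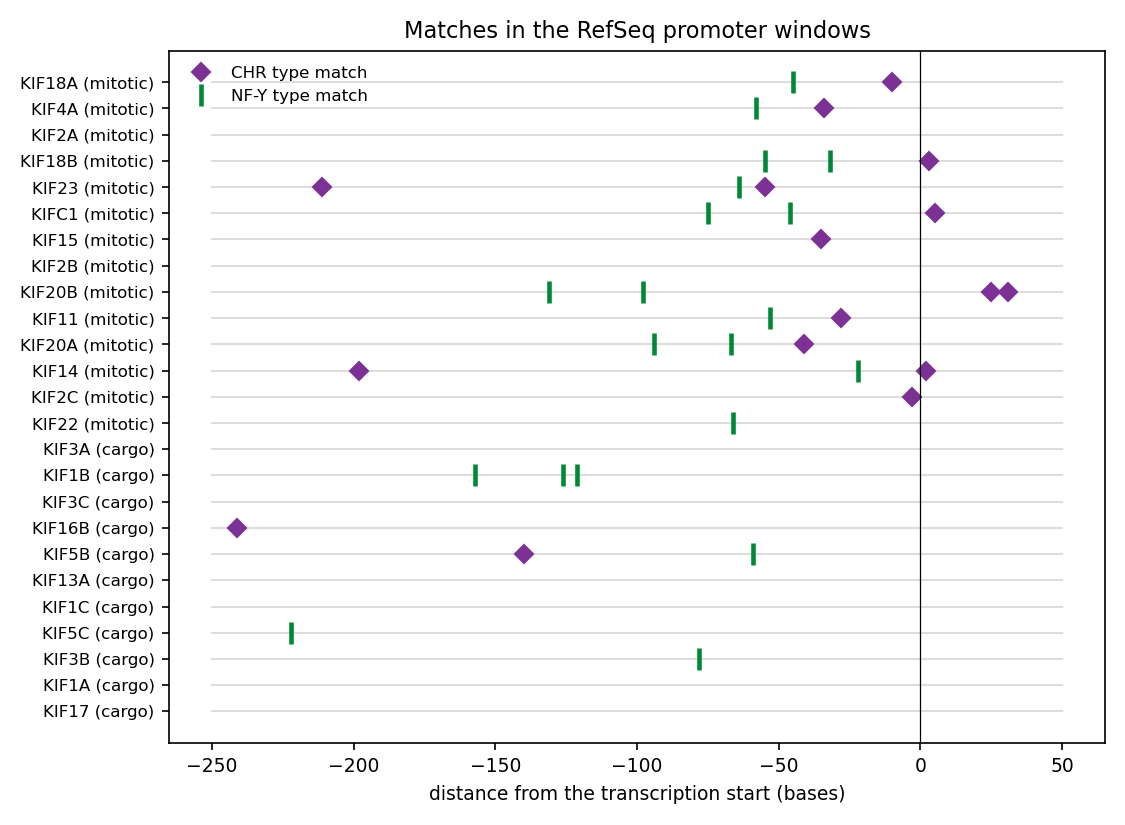
Positions of CHR-type matches (diamonds) and NF-Y-type matches (bars) in the promoter windows of 14 mitotic and 11 cargo kinesins, as the distance from the transcription start in bases (x axis), each gene a row in order of p within its role. Mitotic kinesins carry most of the diamonds. The rows of KIF3A, KIF3C and KIF2A, which were called lower, are empty. So are those of KIF2B, KIF13A, KIF1C, KIF1A and KIF17, which were not called. KIF1B and KIF16B were called lower and hold matches.

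The match alone did not separate the genes that rose. All 4 kinesin genes called higher held both elements, but so did KIF23, KIFC1, KIF20B, KIF11, KIF20A and KIF14, which were not called, and the median change of the 10 was 0.26. The 23 kinesins with a window but without both had 0 higher and 5 lower calls and a median of 0.04. KIFC3, KIF5A and KIF21B, which were also called lower (-0.998, -0.86 and -0.92), had no window and are not counted there. Over all tested genes with a window, 5.92% of the 1841 that held both were called higher and 14.3% lower, against 5.2% and 18.1% of the 13543 that did not. Their medians were -0.03 and -0.07. A match is a run of letters and shows no binding.

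The partners of the mitotic motors rose more often than they fell. Of 19 spindle and midzone genes, 8 were called higher (42.1%) and 1 lower (5.26%), at a median of 0.22 (0.76 by poly-A spikes). Over all genes 4.93% were called higher and 16.5% lower, and of those above the median signal 9.1% and 29.3%. The lower one was TACC3, a spindle protein named after its value was seen, at -0.30 ± 0.09 (adjusted p = 0.0492). That call held in 5 of 20 alternatives, was lost under all 4 other scalings and without each array but untreated replicate 3, and poly-A spikes gave 0.24 (adjusted p 0.0101 to 0.770 over the alternatives). RACGAP1, the other subunit of centralspindlin, rose by 0.59 ± 0.08 (adjusted p = 0.00130), from 2599 ± 272 to 3913 ± 127 intensity units. The log2 difference of KIF23, its motor subunit, from RACGAP1 was -2.86, -2.89 and -2.80 with calactin and -2.54, -2.57 and -2.51 in untreated replicates 1, 2 and 3, without overlap. BIRC5 and CDCA8, passengers that KIF20A brings to the midzone, rose by 0.61 ± 0.07 (adjusted p = 0.000365) and 0.41 ± 0.07 (adjusted p = 0.00384). The CDCA8 call was lost with replicates 1 and 2 alone (adjusted p = 0.0747) and under hybridisation spike scaling (0.133, within 1.65e-08 to 0.133 over its alternatives). Under that scaling 3 of the 19 spindle and midzone genes were called higher, where 3.05% of all genes were. PLK1, a mitotic kinase, rose by 0.55 ± 0.13 (adjusted p = 0.0143). Its call was lost once calactin replicate 1, calactin replicate 2 or untreated replicate 3 was left out (highest adjusted p = 0.0645). AURKA rose by 0.49 ± 0.09 (adjusted p = 0.00374) but was at -0.0084 with probe sets of unshared sequence first. CENPE, a kinesin of the kinetochore without a KIF symbol, read 653, 549 and 775 with calactin and 462, 687 and 671 in untreated replicates 1, 2 and 3, and was not called at 0.12 ± 0.18 (adjusted p = 0.720).

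Among 18 light chain and cargo adaptor genes, 2 were called higher and 5 lower (11.1% and 27.8%, median -0.17, and 0.36 under poly-A spike scaling). The share that fell lay near the 29.3% of all genes above the median signal, where 16 of the 18 lay. RHOT1 and RHOT2, which anchor kinesin and dynein to mitochondria, fell by 0.66 ± 0.09 (adjusted p = 0.000774) and 0.41 ± 0.08 (adjusted p = 0.00611). Both calls were lost under hybridisation and poly-A spike scaling, with -0.13 for RHOT1 and 0.12 for RHOT2 under the latter, and the calls of RHOT2, FYCO1 and KLC3 were lost when the probe sets of a gene were averaged. FYCO1, a link between autophagosomes and kinesin, fell by 0.93 ± 0.19 (adjusted p = 0.00881). TRAK2, which joins RHOT proteins to the motors, rose by 0.40 ± 0.10 (adjusted p = 0.0218). Its call was lost once any calactin array or untreated replicate 1 was left out (highest adjusted p = 0.0757). KLC3, a kinesin light chain, rose by 0.57 ± 0.14 (adjusted p = 0.0206). Its call was lost once calactin replicate 1, calactin replicate 2 or untreated replicate 3 was left out (highest adjusted p = 0.0824).

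Dynein, the motor that walks the other way, was mixed. Of 22 dynein and dynactin genes, 5 were called higher and 5 lower (22.7% each), with a median of 0.005 (0.54 under poly-A spike scaling). The share that fell lay between the 16.5% of all genes and the 29.3% of those above the median signal. DYNC1I2, an intermediate chain, fell by 0.79 ± 0.09 (adjusted p = 0.000338), and BICD2, a cargo adaptor, by 0.59 ± 0.09 (adjusted p = 0.00228). Under poly-A spike scaling they were at -0.26 and -0.055 and not called, and the BICD2 call was also lost under hybridisation spike scaling and with replicates 1 and 2 alone. DYNC1LI2, a light intermediate chain, rose by 0.91 ± 0.13 (adjusted p = 0.00151). With replicates 1 and 2 alone the rise was again 0.91, but the call was lost (adjusted p = 0.0583). NDEL1, a dynein regulator, rose by 0.80 ± 0.11 (adjusted p = 0.00118) and DCTN5, a dynactin subunit, by 0.64 ± 0.09 (adjusted p = 0.00126). With probe sets of unshared sequence first, these 2 were at -0.50 and -0.21.

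Of 21 regulators of cell cycle genes, 7 were called higher (33.3%) and 2 lower (9.52%), at a median of 0.23 (0.77 under poly-A spike scaling). Over all genes 4.93% were called higher and 16.5% lower, and of those above the median signal 9.1% and 29.3%. FOXM1, which activates mitotic genes through the CHR, read 681, 766 and 699.9 intensity units in calactin replicates 1, 2 and 3 and 443, 433 and 471 in untreated replicates 1, 2 and 3. Its groups were far apart, and it rose by 0.65 ± 0.09 (adjusted p = 0.00131). TFDP2, a partner of the E2F factors, rose by 0.61 ± 0.08 (adjusted p = 0.000632), and E2F3 by 0.70 ± 0.09 (adjusted p = 0.000729). The rises of E2F1, E2F2 and E2F8 were wider, at 1.71, 1.04 and 1.81. RBL2, a pocket protein of the repressive DREAM complex, was at -0.79 ± 0.15 (adjusted p = 0.00483), and LIN37, of its MuvB core, at -0.76 ± 0.16 (adjusted p = 0.00959). Both were called lower and were named after their values were seen. The RBL2 call was lost under poly-A spike scaling and with replicates 1 and 2 alone. The LIN37 call was lost under both spike scalings and with either other rule for its probe sets, with values from -0.94 to 0.58 over its alternatives.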

How the data were processed

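RNA of K562 cells was measured on 6 one-colour Affymetrix arrays, from 8 ug of total RNA as biotinylated cRNA per the labels' protocols. The deposited table holds one intensity per probe set on a linear scale. How background, probe summary and scaling were handled is not given in the sources used here, and precision is limited by having 6 arrays. A probe set was named from the platform annotation where it had a single symbol (41091 of 54675, with 62 array controls left out), and the probe set with the highest mean log2 value over the 6 arrays stood for its gene. Values were taken as log2(intensity + 16), so fold changes of dim genes are understated.

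Calactin and untreated arrays were compared for all 19775 genes with limma 3.58.1 in R 4.3.3 (two-sided, mean-variance trend, Benjamini-Hochberg adjustment over all genes, threshold 0.05), which was also tested on simulated data. Adjusted p-values in the text are limma's. The members, lists and roles were chosen with earlier results of these data known. Values on all arrays are given for called kinesins and for the 3 brightest of each role, and for KIF23, KIFC1, KIF15 and KIF3B, which were added after their values were seen. Of each partner list the 5 genes with the smallest p were named, and CENPE, KIFAP3 and FOXM1 in any case. The difference of the mitotic and cargo medians, the within-array differences and the promoter letters were added after seeing the data. The labels number the replicates alike in both groups. Deviations from the group means correlated by 0.54, 0.41 and 0.34 between arrays of the same number. The numbers were therefore taken as pairing in a fit with the replicate block, which was an alternative. The main counts, standard errors and adjusted p-values come from the fit without pairing. With the block, 6 mitotic kinesins were called higher in place of 3. The labels do not say whether same-numbered samples share a culture or day. Other alternatives changed the scaling (quantile, median centring, spike controls), the pseudocount, the filter, the probe set rule, the variance model and the arrays used. Figures were drawn with matplotlib 3.10.9.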

Additional observations from a re-analysis of the deposited data

How the results depend on the processing

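Under 20 alternatives, kinesin genes called (12 in all, 4 higher, 8 lower) numbered 7 in all and 4 lower under hybridisation spike scaling, 30 in all, 28 higher and 2 lower under poly-A spike scaling with the replicate block, and 5 in all, 2 higher and 3 lower with replicates 1 and 2 alone. Higher calls were 8 under quantile normalization, 2 without a variance trend and 7 with the replicate block as a paired fit, which left no kinesin call lost. Leaving out 1 array gave 9 to 12 in all, 2 to 4 higher and 7 to 8 lower. The mitotic median (0.23) was 0.35 under quantile, 0.33 under hybridisation spike and 0.77 under poly-A spike scaling, and 0.16 to 0.28 with 1 array left out. The cargo median (-0.22) was -0.019 under quantile normalization, -0.17 when arrays were centred on their medians, -0.13 by hybridisation spikes, -0.18 when probe sets of a gene were averaged, 0.31 by poly-A spikes, and -0.32 to -0.15 with 1 array left out. Their difference (0.46) was 0.37 under quantile normalization, 0.35 with a pseudocount of 64, 0.34 with the mean of probe sets, 0.39 with replicates 1 and 2 alone, and 0.31 to 0.59 with 1 array left out. Under poly-A spike scaling 11 of 18 negative kinesin values turned positive, among them KIF2A (0.045), which was then not called, and KIF22 (0.53) and KIF9 (0.43), which were then called higher. RHOT2 (0.12) and KIFAP3 (0.21) turned too. With probe sets of unshared sequence first it turned for AURKA (-0.0084), NDEL1 (-0.50) and DCTN5 (-0.21). The cause was not tested. Dim genes such as KIF2B, KIF5C and KIF1A had too little signal over background for a change to be read.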
